A study of Mus musculus with 12 samples.

Results

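The genes of the cytosolic ribosomal proteins were read in colonic crypts of 12 mice. Members were chosen by their names, which had to be Rpl or Rps with a number and at most 1 letter out of a and x, or Rplp0, Rplp1, Rplp2 or Rpsa. The Rpl41 copies Gm10736 and Gm10076 were added, and names of pseudogenes and the paralog Rps27l were left out. The only measured values used in the choice were the raw counts, which had to sum to 60 or more over the 12 libraries. The result was 78 members among the 55471 genes listed, 76 ribosomal protein genes and the 2 copies. All 78 names that matched passed the minimum. Rpl24, with 121 reads in all, lay nearest to it and no matching name lay below it.

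The ribosome builds proteins from a small subunit, which reads the mRNA, and a large subunit, which joins the amino acids. Each subunit carries a fixed set of proteins, and many of their mRNAs begin with a run of pyrimidines, the TOP motif, through which growth signals set their translation. Rapidly renewing tissue such as the crypt epithelium needs a steady supply of ribosomes. When ribosome assembly fails, free Rpl5 and Rpl11 bind MDM2, the ligase that marks p53 for breakdown, so ribosomal proteins and p53 are joined in 1 checkpoint.

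The study crossed 2 states of CBP, a histone acetyltransferase and coactivator of p53, with 2 states of p53, and 3 mice of each group gave 1 crypt library each. CBPAA mice carry a knock-in in which phosphorylated serines of CBP are replaced with alanines. The study's methods place the making of this allele in embryonic stem cells of a 129 background, with backcrossing to C57BL/6, in one passage and in C57BL/6N cells in another. CBPWT mice carry the normal allele. In p53ΔIEC mice the Villin-Cre transgene, active in intestinal epithelial cells, deletes floxed Trp53, the gene of p53. The p53-floxed mice carry the same floxed alleles without that deletion according to the study, while their labels give only WT or AA. The 4 groups were thus CBPWTp53-floxed, CBPAAp53-floxed, CBPWTp53ΔIEC and CBPAAp53ΔIEC, all untreated C57BL/6J mice, and the methods give 8-week-old females. The labels name the replicates as biological, and crypts were released with EDTA from the intestine, so a library is a mixture of crypt cells.

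Trp53, the deleted gene, was lower in every p53ΔIEC library. Its TPM, a level scaled to transcript length and library depth that the authors deposited, was 24.6, 28.6 and 30.4 in CBPWTp53-floxed and 33.5, 30.7 and 23.3 in CBPAAp53-floxed crypts. It was 5.44, 3.26 and 4.15 in CBPWTp53ΔIEC and 5.05, 4.66 and 6.13 in CBPAAp53ΔIEC crypts, so no library went against its p53 label.

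A few libraries stood apart in the makeup of their RNA. The summed TPM of 10 small intestine genes (among them the lipoproteins Apoa1 and Apob and the disaccharidase Sis), all of them detected, was 7025 in CBPWTp53ΔIEC replicate 1, 4160 in CBPAAp53ΔIEC replicate 3 and 3282 in CBPAAp53-floxed replicate 2, against 696 to 1827 in the other 9 libraries. The sum of 6 Paneth cell genes, which belong to the small intestinal crypt, ran from 344 in CBPAAp53ΔIEC replicate 2 to 14791 in CBPWTp53ΔIEC replicate 1, and was 12148 in CBPAAp53-floxed replicate 3 and 8089 in CBPAAp53ΔIEC replicate 3. The median of 30 proliferation genes, as log2 deviation from each gene's mean, was 1.00 to 1.32 in 4 of the p53ΔIEC libraries but 0.28 in CBPWTp53ΔIEC replicate 1 and -0.53 in CBPAAp53ΔIEC replicate 3, and -0.92 to -0.36 in the p53-floxed libraries. The sum of 11 colon epithelium genes was 24186 to 26996 TPM in CBPWTp53-floxed, 21126 to 31035 in CBPAAp53-floxed, 30722 to 39271 in CBPWTp53ΔIEC and 28310 to 35216 in CBPAAp53ΔIEC crypts. That of 10 stroma genes was 5.08 to 6.14, 3.11 to 6.73, 2.02 to 4.40 and 3.48 to 3.66 TPM in the same order. After p53 deletion in CBPWT mice the first was thus higher and the second lower without overlap, while in CBPAA mice both overlapped. Over all libraries 13 leukocyte genes summed to 5.44 to 11.7 and 5 endothelium genes to 1.05 to 1.85 TPM. The part of these differences in the results on ribosomal proteins was not tested. Values without CBPWTp53ΔIEC replicate 1, CBPAAp53ΔIEC replicate 3 or CBPAAp53-floxed replicate 2 are given beside those comparisons of the members that moved with them. Each library name also ends in a number whose meaning the labels do not give. It was lower in CBPWTp53ΔIEC replicate 1 and CBPAAp53ΔIEC replicate 3 than in every p53-floxed library. In the other p53ΔIEC libraries it was higher than in every p53-floxed library. In fits without both, p53 state cannot be told apart from this number. For CBPAAp53-floxed replicate 3, high in Paneth cell genes, the members' medians are covered only by the ranges over each library left out. In bulk RNA, fewer cells of a type and less RNA per cell cannot be told apart.

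The members took 6.28% of the TPM and 3.93% of the reads of a library on average. The 30 small subunit genes held 2.37% of the TPM, the 43 large subunit genes 2.94%, and the 3 genes of the P stalk, the flexible arm of the large subunit that recruits translation factors, held 0.913%. The highest level was that of Rplp1, a P stalk protein, with a mean of 6486 TPM and a range of 5718 to 7762 over the 12 libraries. Rpl41, the smallest ribosomal protein, followed at 2409 TPM and Rplp0, the base of the stalk, at 2357 TPM. The ranges of these last 2 genes, 2177 to 2828 and 2137 to 2810 TPM, overlapped almost entirely, and so did those of Rps15 and Rpl36 behind them, with means of 2145 and 2129 TPM.

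Further down the order stood Rpsa, which doubles as a laminin receptor, with a mean of 935 TPM, and Rpl23, a large subunit protein, with 657 TPM. Rpl5 and Rpl11, which are built into the large subunit together with the 5S RNA, had 342 and 304 TPM, with ranges of 284 to 381 and 258 to 392. Although the ribosome holds Rplp1 and Rplp2 in equal numbers, Rplp2 had a mean of 287 TPM and rank 62 of 78. At the low end stood Rpl35a with 66.0, Gm10076 with 64.2, Rpl13a with 21.6, Rps10 with 4.84 and Rpl24 with 1.72 TPM. These levels set a gene's reads against a gene length that comes from an annotation, so the order depends on it.

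**Figure D1:**
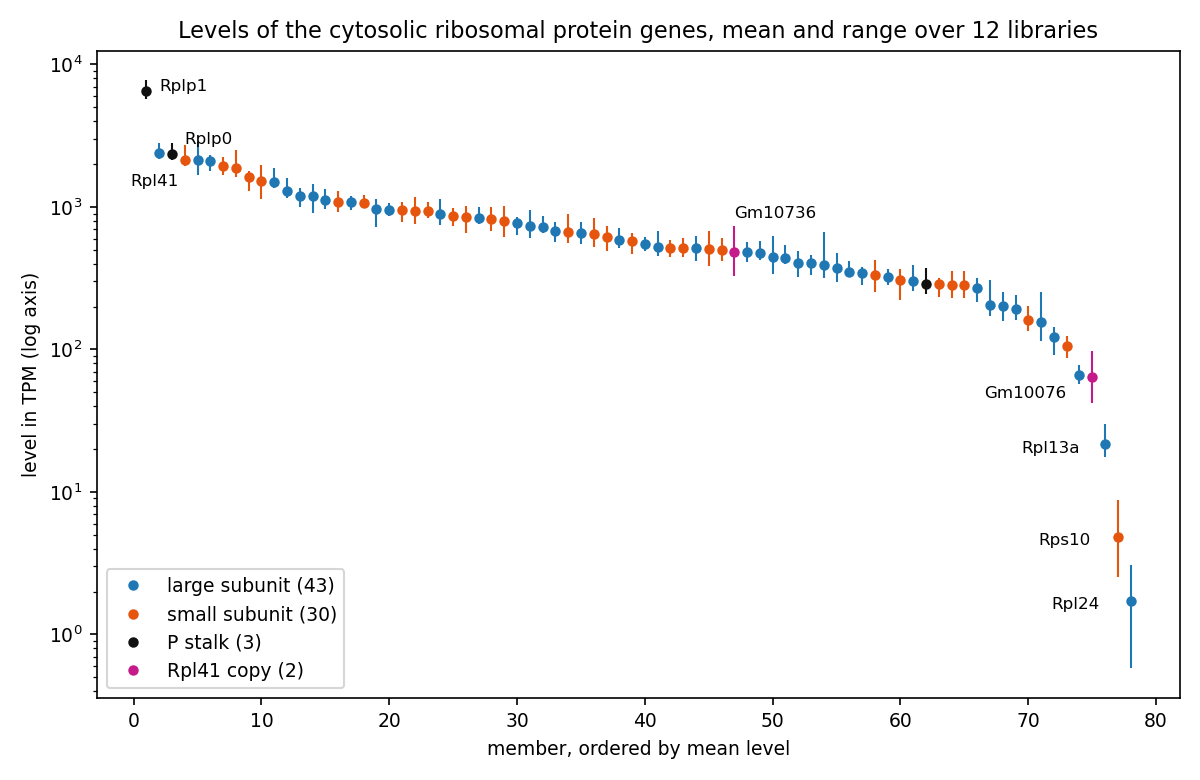
Mean level in TPM (log axis) of each of the 78 members, ordered from highest to lowest, with lines from the lowest to the highest of the 12 libraries and colours for large subunit, small subunit, P stalk and Rpl41 copies. Rplp1 stands above all others at 6486 TPM, and Rpl13a, Rps10 and Rpl24 fall away from the rest at 21.6, 4.84 and 1.72 TPM.

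The lowest members by TPM, Rpl24, Rps10 and Rpl13a, have exons that overlap other genes, as many members do. Exons of Rpl24 overlap the gene Gm28037, those of Rps10 overlap Gm15420 and those of Rpl13a overlap Gm45713, Mir5121 and Snord33. Over all libraries Gm28037 and Gm45713 had 0 reads and Gm15420 had 22. In all, exons of 37 members overlap another gene, 18 of them on the other strand, and how the counting treated such reads is not given in the sources used here. Pseudogenes named after members stood in 319 genes of the table for 62 members, and 196 of these had reads. They held 244207 reads against 6774553 on the members, 3.48% of both. For Rps10, a small subunit protein, the pseudogenes held 22669 reads and the gene itself 751, so that 96.8% of both lay outside the gene. The next shares were 31.4% for Rpl14, 28.9% for Rpl38, 20.1% for Rps7 and 19.6% for Rpl36a. The levels of these members are uncertain. These shares do not measure by how much, since the handling of reads that match several places is not given.

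The TOP motif was looked for at the annotated starts, because it is the sequence that sets this family apart in other work. RefSeq start sites on GRCm38 were matched for 56 of the 78 members. Counting a C at the start followed by at least 4 letters that are C or T, 13 of 56 members (23.2%) had the run against 3.01% of 27025 genes. Windows of 6 of the 13 are printed from 10 bases before to 20 bases from the start, with the run in capitals, one for the stalk, 3 for the large and 2 for the small subunit.
Rplp2, chr7:141447641-141447670, plus strand: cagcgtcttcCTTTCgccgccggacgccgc
Rpl15, chr14:18270967-18270996, minus strand: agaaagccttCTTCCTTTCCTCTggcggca
Rpl28, chr7:4792955-4792984, plus strand: tctcgtgtctCTCTTTCCgtctccggccgc
Rpl35a, chr16:33056472-33056501, plus strand: gcttgccttcCTCTTTCCgccatcttggcg
Rps10, chr17:27635225-27635254, minus strand: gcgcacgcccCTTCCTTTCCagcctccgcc
Rps27, chr3:90213629-90213658, minus strand: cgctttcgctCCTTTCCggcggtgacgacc

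The runs in these 6 windows are 5 to 13 letters long. Many other members start at a letter that breaks the run in the annotation, which places a start with limited precision. Rpl27a, Rpl7a and Rps24 start at a T within runs of 16, 7 and 6 letters, so they were not counted. In the RefSeq windows of 300 bases around the start, GCCATC, the core letters bound by YY1, stood on either strand in 14 of 56 members (25%) against 15.9% of all genes. CCGGAAG, the letters bound by ETS factors, stood in 23 (41.1%) against 9.93%. The reverse of the latter begins with a pyrimidine run, so it can coincide with the TOP letters. A match is a description of the letters and says nothing of binding in these crypts.

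Within a library, nearly all members moved together. The SD of a member's log2 reads scaled to library size (CPM) over the 12 libraries was 0.26 at the median, against 0.24 for all genes tested, and 0.08 once the median of the members in each library was subtracted. Across the 12 libraries, 68 of 78 members had a correlation above 0.8 with that median, which is a description, since the libraries share a scaling and each member is part of the median. The 5 members under 0.5 were Rps10 (-0.51), Rpl24 (-0.22), Gm10076 (0.03), Rpl13a (0.04) and Gm10736 (0.50). These had the fewest reads of the 78 members, 121 to 3097 over all libraries. Rpl14 and Rpl38, whose pseudogenes held 31.4 and 28.9% of the reads of both, had correlations of 0.97 and 0.92. Why the 5 departed from the others was not tested.

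The library medians show where the members were high and low. As log2 deviation from each gene's mean they were 0.13, -0.02 and -0.02 in CBPWTp53-floxed, -0.04, 0.36 and 0.32 in CBPAAp53-floxed, 0.29, -0.18 and -0.42 in CBPWTp53ΔIEC and -0.18, -0.23 and -0.02 in CBPAAp53ΔIEC crypts. CBPAAp53-floxed replicates 2 and 3 and CBPWTp53ΔIEC replicate 1 stood highest, with 77, 76 and 75 of 78 members above their own mean. Of the 3 libraries with the highest small intestine sums, 2 were among these, while CBPAAp53ΔIEC replicate 3 had 32 members above the mean. The TMM scaling factors of CBPWTp53ΔIEC replicate 1 and CBPAAp53-floxed replicate 3, 0.916 and 0.922, were the lowest of the 12. CBPWTp53ΔIEC replicates 2 and 3 and CBPAAp53ΔIEC replicates 1 and 2 stood lowest, with 5, 4, 5 and 3 members above the mean.

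The share of all reads that fell on the members showed nearly the same order without scaling. It was 4.23, 3.88 and 3.92% in CBPWTp53-floxed (4.01 ± 0.193%, SD, n = 3) and 3.86, 4.91 and 4.48% in CBPAAp53-floxed crypts (4.42 ± 0.531%, SD, n = 3). It was 4.37, 3.52 and 3.14% in CBPWTp53ΔIEC (3.68 ± 0.629%, SD, n = 3) and 3.56, 3.50 and 3.82% in CBPAAp53ΔIEC crypts (3.63 ± 0.171%, SD, n = 3). The 95% Wilson interval of a library's share reached at most 0.0118 percentage points to either side, which covers counting error only, so the differences between mice of 1 group were far larger than counting error. Of the 4 pairwise comparisons, only in that of p53 deletion in CBPAA mice did the libraries not overlap.

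Averaged over both CBP genotypes, the share was 0.561 percentage points lower after p53 deletion (means 3.65 and 4.21%), with p = 0.065 in a two-sided exact permutation test within genotypes, which allows no p below 0.005. Without CBPWTp53ΔIEC replicate 1 the difference was -0.734 (exact permutation p = 0.005), without CBPAAp53-floxed replicate 1 it was -0.701 (exact permutation p = 0.035), and by share of TPM it was -0.832 (exact permutation p = 0.01). Leaving out either of these libraries made the difference larger, and the libraries named were chosen after the values were seen. The share of TPM is on another scale, with 6.28% on the members against 3.93% of the reads. Its difference therefore cannot be ranked against those in reads. With each library left out in turn, the averaged difference ran from -0.734 to -0.427 percentage points, so other libraries made it smaller. Within the CBPAA genotype the difference was -0.789 percentage points (p = 0.1, exact permutation, the smallest that 3 against 3 libraries allow) and within CBPWT it was -0.333 (p = 0.5, exact permutation). The latter was -0.679 without CBPWTp53ΔIEC replicate 1, -0.0638 without CBPWTp53ΔIEC replicate 3 and -0.223 without CBPWTp53-floxed replicate 1. The mean of CBPAAp53-floxed lay 0.407 above that of CBPWTp53-floxed crypts (p = 0.4, exact permutation), or 0.158 without CBPAAp53-floxed replicate 2 and 0.686 without CBPAAp53-floxed replicate 1. The p53ΔIEC groups differed by -0.0488 (p = 0.9, exact permutation), and by -0.318 to 0.297 with 1 library left out, so this difference had no fixed direction.

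**Figure D2:**
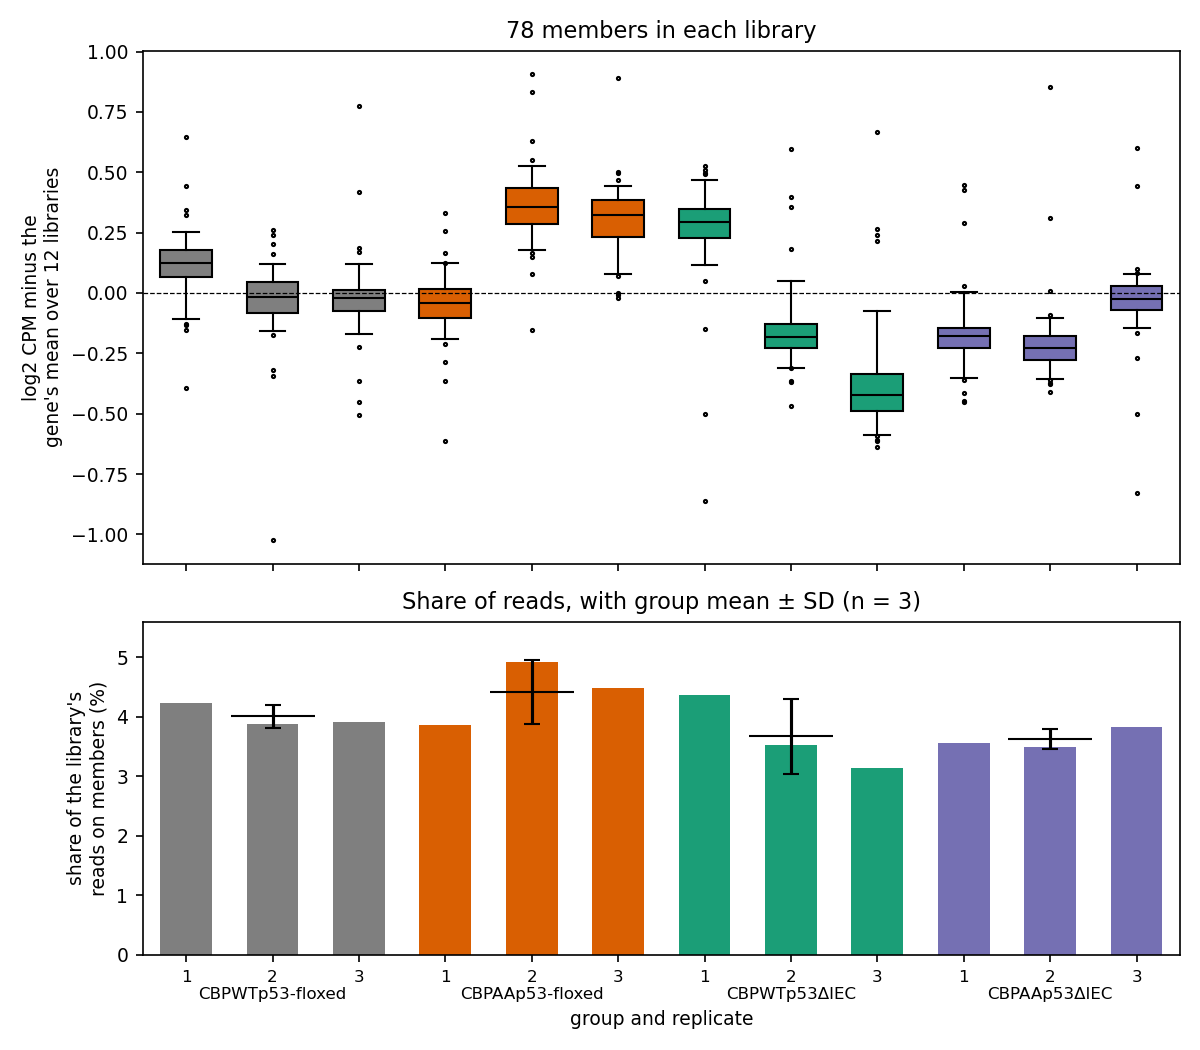
Above, the 78 members in each library as log2 CPM minus the gene's mean over 12 libraries (box: middle 50%, whiskers: 5th to 95th percentile, dots: members beyond); below, the share of the library's reads on the members in percent, with the group mean and SD (n = 3). CBPWTp53ΔIEC replicate 1, with a share of 4.37%, sits apart from replicates 2 and 3 of its group at 3.52 and 3.14%.

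After p53 deletion in CBPAA mice, the members were lower almost throughout. In edgeR, 74 of 78 members had a lower and 4 a higher value in CBPAAp53ΔIEC than in CBPAAp53-floxed crypts, with a median log2 fold change of -0.36 against 0.01 for the 14610 genes tested. A gene was called where its adjusted p was under 0.05 and its log2 value differed from 0 by more than 0.5. By this cutoff 1 member was called, Gm10736, against 0.0274% of all genes. At an unadjusted p under 0.05, 37 members were lower, against 5.41% of all genes, and 49 with DESeq2, against 5.86% of the same genes. For 36 members all 3 CBPAAp53ΔIEC libraries lay below all 3 CBPAAp53-floxed libraries, against 7.18% of all genes.

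Rps12, a small subunit protein, had the largest difference among genes of ribosomal proteins. Its level was 424, 577 and 569 CPM in CBPAAp53-floxed and 325, 332 and 388 CPM in CBPAAp53ΔIEC crypts. The groups did not overlap, but CBPAAp53-floxed replicate 1 lay close to CBPAAp53ΔIEC replicate 3. The log2 fold change was -0.59 (standard error 0.21, edgeR adjusted p = 0.334), so the difference did not pass the test over all genes.

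Rps25, a small subunit protein used by some viral RNAs to start translation, had 350.2, 417 and 453 CPM in CBPAAp53-floxed and 250.4, 255 and 313 CPM in CBPAAp53ΔIEC crypts. Its log2 fold change was -0.58 (adjusted p = 0.339, edgeR). Rpl34 of the large subunit had a log2 fold change of -0.56 and Rps27, whose TOP run is printed above, had -0.54, both with adjusted p over 0.05. The groups did not overlap in either, but for Rps27 CBPAAp53-floxed replicate 1 and CBPAAp53ΔIEC replicate 3 lay side by side at 596.8 and 596.3 CPM. The members at the other end were Rps10 at 0.38, Gm10076 at 0.04, Rpl27 at 0.03 and Rpl13a at 0.02. Of these, Rps10, Gm10076 and Rpl13a are among the members with the fewest reads.

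Without CBPAAp53-floxed replicate 2 the median was -0.30 and no member was called. At an unadjusted p under 0.05, 7 members were then lower, against 4.65% of all genes. Without CBPWTp53ΔIEC replicate 1 and CBPAAp53ΔIEC replicate 3, the 2 libraries highest in small intestine genes, the median was -0.43 and 18 members were called, 17 lower and 1, Rps10, higher, while the calls among all genes also grew, to 8.12%.

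After p53 deletion in CBPWT mice, the members' direction rested on 1 library. With all libraries the median log2 fold change was -0.10 against 0.01 for all genes, with 66 members lower and 12 higher. The only member called was Gm10736, which rose, while 3.15% of all genes were called in either direction. No other member passed an unadjusted p under 0.05 in edgeR or DESeq2, against 8.28% of all genes lower. No member had all CBPWTp53ΔIEC libraries below all CBPWTp53-floxed libraries, against 14.7% of all genes, and 2, Gm10736 and Rpl13a, had them all above, against 16.1%. Both counts lay below the share of all genes.

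Rpl32, a large subunit protein, had the lowest log2 fold change. It had 193, 157 and 223 CPM in CBPWTp53-floxed and 201, 129 and 113 CPM in CBPWTp53ΔIEC crypts. Its log2 fold change was -0.37 (standard error 0.21, edgeR adjusted p = 0.334). Replicate 1 of the p53ΔIEC group lay within the range of the p53-floxed group and replicates 2 and 3 below it. The same held for Rpl22, a large subunit protein that also binds other RNAs, with 161, 140.4 and 149 CPM against 151, 124 and 91.3 CPM and a log2 fold change of -0.30. Rpl31, Rps28 and Rpl39 had -0.35, -0.32 and -0.25, and Rpl13a, Rps10, Rplp2 and Rps2 stood at the upper end with 0.34, 0.28, 0.13 and 0.12.

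Without CBPWTp53ΔIEC replicate 1 the median of the members was -0.33, beside -0.36 in CBPAA mice, and 44 of 78 members were lower at an unadjusted p under 0.05, against 9.98% of all genes. Rpl32 then had a log2 fold change of -0.66 (edgeR adjusted p = 0.0379) and Rpl22 of -0.49 (adjusted p = 0.0478). Without CBPWTp53ΔIEC replicate 3, the lowest library, the median was 0.04.

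**Figure D3:**
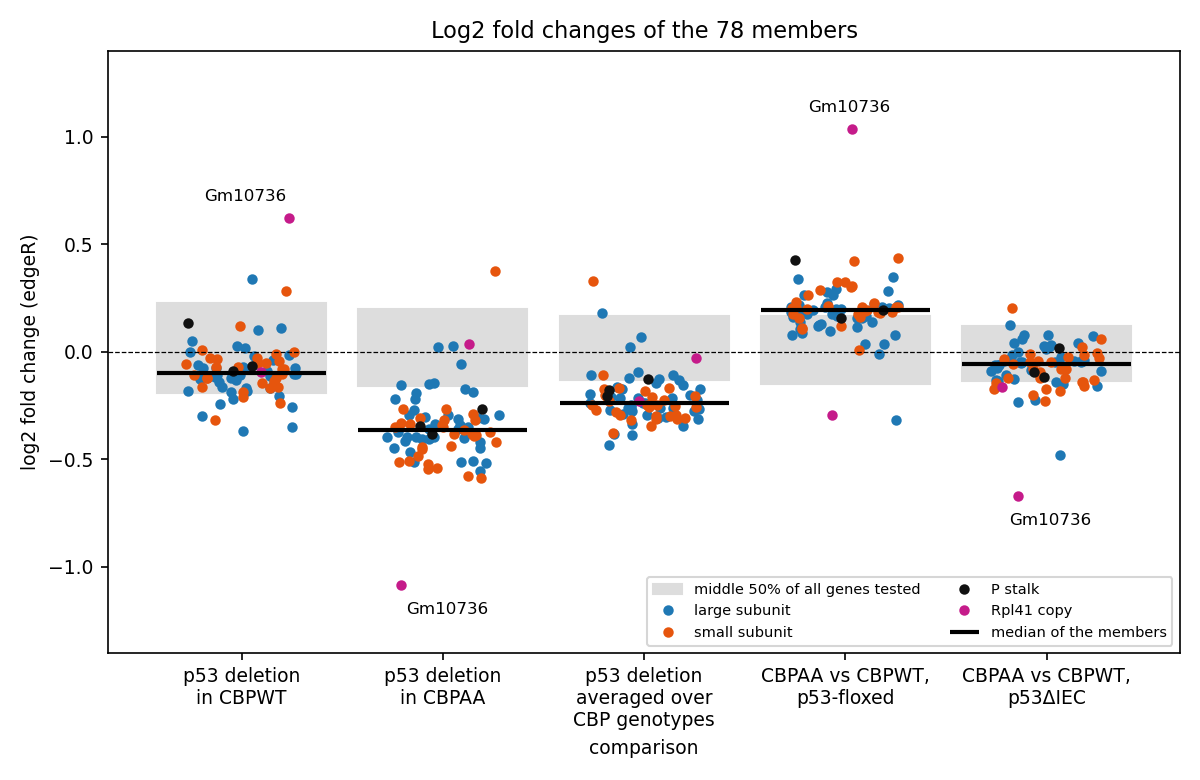
Log2 fold change in edgeR of each of the 78 members in 5 comparisons, with the median of the members as a black line and the middle 50% of all genes tested in grey. The medians are -0.10, -0.36, -0.24, 0.19 and -0.06 from left to right, and Gm10736 stands outside the other members in 4 of the 5.

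Averaged over both CBP genotypes, p53 deletion went with a median log2 fold change of -0.24 for the members and 0.01 for all genes, with 74 of 78 members lower. None was called with all 12 libraries, against 3.5% of all genes, and none had an adjusted p under 0.05 in edgeR. At an unadjusted p under 0.05, 21 were lower, against 8.73% of all genes, and DESeq2 gave 36 at the unadjusted threshold, against 9.28%, and 2 at the adjusted one, against 2.86%, none of them past the fold cutoff. The smallest adjusted p was that of Rpl22 (log2 fold change -0.35, standard error 0.11, edgeR adjusted p = 0.0817). Rpl31, Rpl32, Rpl39 and Rps27 had larger differences of -0.43, -0.39, -0.38 and -0.38.

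Without CBPWTp53ΔIEC replicate 1, 51 of the 78 members were lower at an adjusted p under 0.05, against 5.32% of all genes, and the median was -0.35. Among them were 24 of 30 small subunit genes, 25 of 43 large subunit genes and 2 of 3 stalk genes. Only Rps27 and Rpl32, both at -0.53 (edgeR adjusted p = 0.0106 and 0.0107), also passed the fold cutoff, against 7.18% of all genes called in either direction. The smallest adjusted p was that of Rps20, a small subunit protein, whose log2 fold change was -0.48 (standard error 0.10, edgeR adjusted p = 0.00743). It had 572, 522 and 529.8 CPM in CBPWTp53-floxed, 577, 728 and 679 in CBPAAp53-floxed, 445 and 356 in CBPWTp53ΔIEC replicates 2 and 3, and 436, 432 and 523 CPM in CBPAAp53ΔIEC crypts, while the library left out had 735. Each p53ΔIEC library except the one left out lay below all p53-floxed libraries of its own CBP genotype.

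The 27 members that did not pass without that library included the highest ones after Rplp1, namely Rpl41 (-0.19) and Rplp0 (-0.26). Rpsa (-0.28), Rpl35a (-0.31), Rpl31 (-0.53) and Rpl39 (-0.52) were also among the 27. So were the members with the fewest reads, Rps10, Rpl13a, Rpl24, Gm10076 and Gm10736. A further step, leaving out CBPAAp53ΔIEC replicate 3 too, gave 61 members lower against 10.5% of all genes, and leaving out CBPAAp53-floxed replicate 2 as well gave 65 against 16.1%. In these fits p53 state cannot be told apart from the number that ends the library names. With CBPAAp53ΔIEC replicate 3, CBPWTp53ΔIEC replicate 3 or CBPAAp53-floxed replicate 2 left out alone, none passed, and 32, 4 and 8 were lower at an unadjusted p under 0.05 in edgeR, against 11.7, 6.31 and 12.1% of all genes. The last 2 counts lay below the share of all genes. The libraries left out were chosen after the values were seen, and DESeq2 was not run without them.

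**Figure D4:**
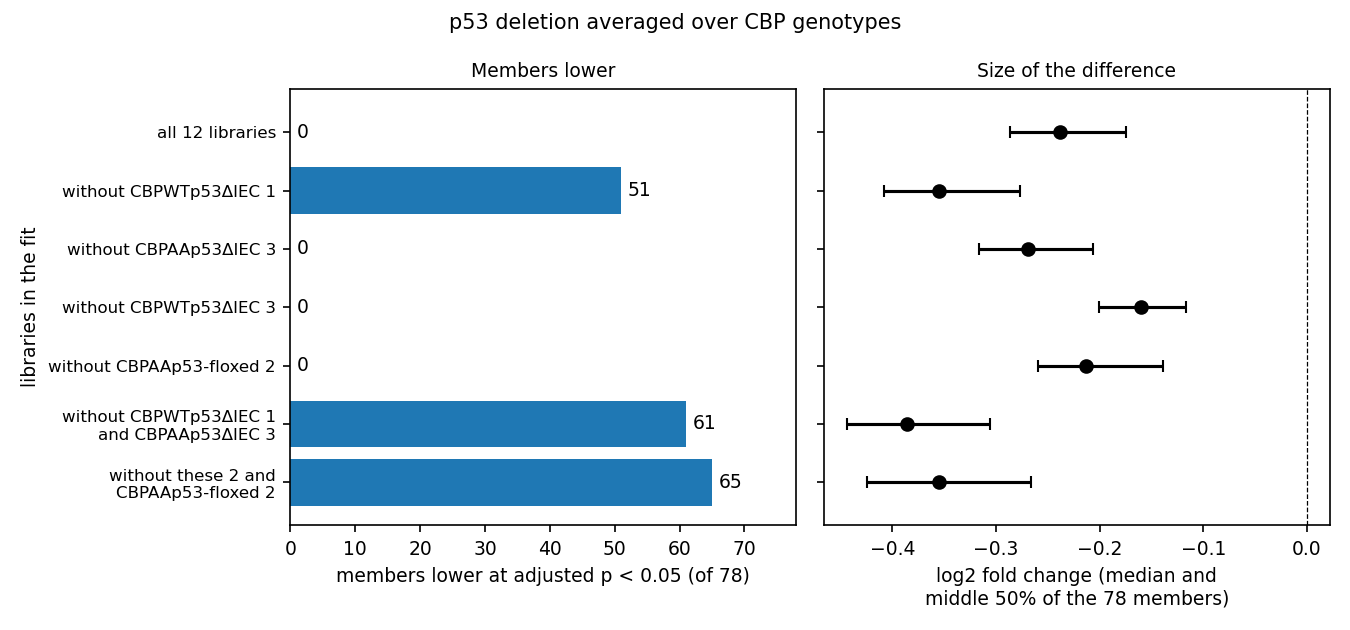
Members lower after p53 deletion averaged over CBP genotypes at an edgeR adjusted p under 0.05 (left, bars from 0 to 78) and the median and middle 50% of their log2 fold changes (right), for 7 choices of libraries. The count is 0 with all 12 libraries, 51 without CBPWTp53ΔIEC replicate 1, and 61 and 65 without 2 and 3 libraries, while the median stays between -0.39 and -0.16.

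Few members differed between the CBP genotypes. In CBPAAp53-floxed vs. CBPWTp53-floxed crypts the median was 0.19 against 0.01 for all genes, with 75 members higher and 3 lower. Without CBPAAp53-floxed replicate 2 the median was 0.12 with 66 higher and 12 lower, and without CBPAAp53-floxed replicate 1 it was 0.31. None was called in edgeR, against 0.0% of all genes, and DESeq2 called 1, Gm10736, against 0.233%. At an unadjusted p under 0.05, 4 members were higher, against 3.86% of all genes, and 5 with DESeq2, against 3.97%. Further, 9 members had all CBPAAp53-floxed libraries above all CBPWTp53-floxed libraries, against 9.75%. The shares at these marks were near those of all genes.

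Rps13, a small subunit protein, was among the 4. It had 291, 278.3 and 280.4 CPM in CBPWTp53-floxed and 359, 408 and 382 CPM in CBPAAp53-floxed crypts, without overlap, and a log2 fold change of 0.43 (standard error 0.16, edgeR adjusted p = 0.618). Rplp2 had 208, 212 and 214 CPM against 253, 326 and 273 CPM and a log2 fold change of 0.43 (edgeR adjusted p = 0.618). Rps12 (0.42) and Rpl34 (0.35) followed. These comparisons and that of p53 deletion in CBPAA mice share the CBPAAp53-floxed libraries, of which replicates 2 and 3 were the highest in most members, so their values are not independent.

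In CBPAAp53ΔIEC vs. CBPWTp53ΔIEC crypts the median was -0.06, with 62 members lower and 16 higher, against -0.01 for all genes. None was called in edgeR or DESeq2, against 0.00684% of all genes, and 1, Gm10736, was lower at an unadjusted p under 0.05, against 1.76%. At the ends stood Rpl24 with -0.48, Rpl34 with -0.23 and Rpl35a with -0.22, and Rps10 with 0.20 and Rpl11 with 0.12. Without CBPWTp53ΔIEC replicate 1 the median turned to 0.16, with 73 members higher. Without CBPWTp53ΔIEC replicate 3 it was -0.20, with 77 members lower. Of the members, 6 were then lower at an unadjusted p under 0.05 in edgeR, against 2.12% of all genes.

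The effect of p53 deletion in CBPAA minus that in CBPWT mice had a median of -0.25 over the members against -0.02 for all genes. Gm10736 was the only member called, against 0.00684% of all genes, and Rps2, a small subunit protein, was the only other member at an unadjusted p under 0.05, against 5.28% of all genes lower (log2 difference -0.45, edgeR adjusted p = 0.482). Without CBPWTp53ΔIEC replicate 1 the median was -0.03. Without CBPWTp53ΔIEC replicate 3 it was -0.40, and 18 members were lower at an unadjusted p under 0.05 in edgeR, against 5.58% of all genes. The size of this difference between the CBP genotypes thus moved with single libraries. In these fits no member apart from Gm10736 had an adjusted p under 0.05.

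The medians of the subunits lay close to each other. After p53 deletion in CBPAA mice the median log2 fold change was -0.38 for the small subunit, -0.35 for the large subunit and -0.34 for the P stalk. In CBPWT mice it was -0.08, -0.11 and -0.07. For the 8 members known to bind MDM2, Rpl5, Rpl11, Rpl23, Rpl26, Rps3, Rps7, Rps14 and Rps27, the medians were -0.35 in CBPAA and -0.13 in CBPWT mice, near those of all members.

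Of these 8, Rpl5 had 511, 599 and 689 CPM in CBPAAp53-floxed and 462, 476 and 530.0 CPM in CBPAAp53ΔIEC crypts, which overlapped, with a log2 fold change of -0.29 (edgeR adjusted p = 0.441). Rpl23 had 451, 584 and 564 CPM against 395, 403 and 449 CPM, without overlap but with its closest libraries next to each other, and a log2 fold change of -0.36 (edgeR adjusted p = 0.397). Rpl11 had 304, 394 and 410.3 CPM against 281.3, 398 and 305 CPM and a log2 fold change of -0.17 (edgeR adjusted p = 0.706). CBPAAp53ΔIEC replicate 2 was high in Rpl11 alone among these 3 genes.

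Gm10736 departed from the other members. It lies on chr13:111593534-111593611 of GRCm38, minus strand, is annotated as a processed pseudogene, and its 78 bases are identical to bases 194 to 271 of an Rpl41 transcript, where Rpl41 itself lies on chr10:128548114-128549305, minus strand. The sequence is shown because a read inside it cannot be told from one of Rpl41 by its letters, with the start and stop codon of Rpl41 in capitals.
Gm10736: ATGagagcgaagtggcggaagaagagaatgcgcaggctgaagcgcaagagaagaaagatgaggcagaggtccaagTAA

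Its level was 10.9, 11.3 and 10.4 CPM in CBPWTp53-floxed, 18.05, 22.2 and 26.7 in CBPAAp53-floxed, 18.5, 14.8 and 16.9 in CBPWTp53ΔIEC and 10.4, 11.0 and 10.1 CPM in CBPAAp53ΔIEC crypts, from 121 to 395 reads per library. Set against the reads of Gm10736 and Rpl41 together, its share was 0.963 ± 0.101%, 1.84 ± 0.269%, 1.54 ± 0.234% and 0.994 ± 0.105% (SD, n = 3) in the same order. The libraries of CBPAAp53-floxed and CBPWTp53ΔIEC crypts all lay above those of the other 2 groups. The groups overlapped in Rpl41 itself, with 955 to 1396 CPM in CBPAAp53-floxed and 1007 to 1274 CPM in CBPWTp53-floxed crypts.

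The share differed by 0.579 percentage points after p53 deletion in CBPWT and by -0.849 in CBPAA mice, and by 0.880 and -0.548 between CBPAA and CBPWT in p53-floxed and p53ΔIEC mice. All 4 differences had p = 0.1 in two-sided exact permutation tests, the smallest that 3 against 3 allow. In edgeR the log2 fold change of Gm10736 was 0.62 (standard error 0.15, adjusted p = 0.0391) in CBPWT and -1.08 (adjusted p = 0.0182) in CBPAA mice. The difference of these effects was -1.71 (standard error 0.21, adjusted p = 0.0222), while the genotype differences of 1.04 and -0.67 had adjusted p of 0.0580 and 0.985. Of the 12 fits that each left out 1 library, the difference of effects had an adjusted p under 0.05 in 3, those without CBPAAp53-floxed replicate 1, CBPWTp53ΔIEC replicate 1 or CBPWTp53ΔIEC replicate 2, and its log2 value lay between -1.84 and -1.56 in all 12. The change in CBPWT lost its call without any 1 library of either group compared and without CBPAAp53ΔIEC replicate 2 (edgeR adjusted p = 0.0513 to 0.168). That in CBPAA lost it without CBPAAp53-floxed replicate 2 or 3 or CBPAAp53ΔIEC replicate 1 or 2 (edgeR adjusted p = 0.0667 to 0.168).

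**Figure D5:**
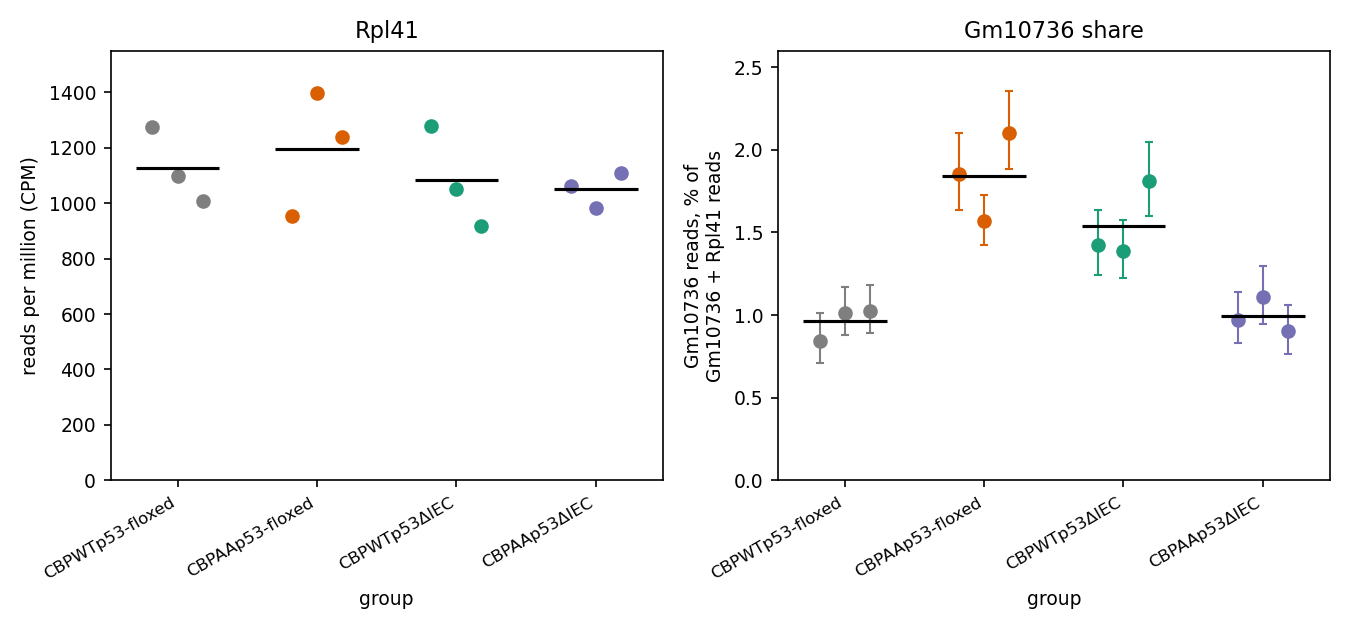
Left, Rpl41 in CPM per library by group; right, Gm10736 reads as percent of Gm10736 and Rpl41 reads with 95% Wilson intervals, which cover counting error only; lines mark group means (n = 3). The share lies between 0.846 and 1.11% in CBPWTp53-floxed and CBPAAp53ΔIEC and between 1.39 and 2.105% in the other 2 groups.

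Gm10076, the other copy, is annotated as a lincRNA on chr14:105681828-105682211, plus strand, and differs from Rpl41 at 3 of its 384 bases. It had 14.8, 11.1 and 6.61 CPM in CBPWTp53-floxed, 6.12, 10.8 and 9.36 in CBPAAp53-floxed, 8.50, 10.7 and 11.0 in CBPWTp53ΔIEC and 9.61, 8.76 and 8.63 CPM in CBPAAp53ΔIEC crypts. All groups overlapped, and its log2 fold changes after p53 deletion were -0.10 and 0.04.

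Genes around the ribosome were counted by list, with all 12 libraries unless stated. For 22 translation factors and other TOP mRNAs, such as the elongation factors Eef1a1 and Eef2, the median log2 fold changes after p53 deletion were -0.30 in CBPAA and -0.14 in CBPWT mice, with 0 passing the test in edgeR. The latter was -0.31 without CBPWTp53ΔIEC replicate 1. Among 40 factors of ribosome assembly the medians were 0.05 and 0.28. Of these, 2 passed the adjusted p in CBPWT mice, Bop1 (0.46, edgeR adjusted p = 0.0383) and Ftsj3 (0.36, edgeR adjusted p = 0.0431), and neither passed the fold cutoff. A count of 2 in 40 is near the 3.72% of all genes at that mark. Medians were 0.09 and 0.11 for 13 genes of RNA polymerase I and 0.07 and 0.21 for 11 chaperones of ribosomal proteins, with none passing.

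Mitochondria have ribosomes of their own, with a separate set of proteins. Of 77 mitochondrial ribosomal protein genes tested, 69 were higher after p53 deletion in CBPWT mice with a median of 0.25, and Mrps11 (0.77, edgeR adjusted p = 0.0329) and Mrps28 (0.65, edgeR adjusted p = 0.0340) were called, a share below the 3.15% of all genes. In CBPAA mice 54 were lower with a median of -0.06 and 0 were called, where 0.0274% of all genes were. Of 30 proliferation genes, 24 were called higher in CBPWT mice (median 1.74) and 29 in the average (median 1.49), against 3.15 and 3.5% of all genes called. All 30 had higher values in both comparisons. In CBPAA mice all 30 had higher values (median 1.35) and none was called, where 0.0274% of all genes were. Among 10 genes of MDM2 and translation control, Trp53 was the only one called, and it fell in both genotypes. Rps27l, a paralog of Rps27 and a known p53 target, had a log2 fold change of 0.20 in CBPWT and -0.48 in CBPAA mice (edgeR adjusted p = 0.689 and 0.437), and none of the 5 paralogs tested passed.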

How the data were processed

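The authors deposited raw read counts and TPM per gene for 12 libraries of colonic crypts (3 mice in each of 4 groups, taken from the labels), with fold changes and p-values of 5 comparisons of their own, which were not used. The submitters' processing notes name fastp 0.20.0, FastQC 0.11.9, HISAT2 2.1.0, SAMtools 1.9, featureCounts in Subread 2.0.1 and GRCm38. The labels name a stranded mRNA kit and the study's methods a TruSeq RNA kit without that word, and the strand setting and the handling of reads that match several places are not given in the sources used here. Total counts were 11177430 to 18029125, and the deposited counts were used unchanged.

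Counts were fitted over all 12 libraries with edgeR 4.0.16 in R 4.3.3 (filterByExpr with a minimum count of 10, TMM, robust quasi-likelihood, 4 groups), which left 14610 genes and all 78 members. Adjusted p are Benjamini-Hochberg values over all genes tested, and calls needed one under 0.05 with a log2 value more than 0.5 from 0. Standard errors come from the F statistic. CPM are counts scaled to a library's normalized total. Shares were compared with exact permutation tests in SciPy 1.17.1 (Python 3.11.15), and figures used matplotlib 3.10.9. Fits were tested on simulated data.

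Alternatives were DESeq2 1.42.0, its size factors, TMM from genes that are no members, no filter or at least 10 reads in every library, the groups compared only, no fold cutoff, each library left out, a block for the replicate number, and for shares the deposited TPM or no Rpl41 copies. Leaving out the 2 or 3 libraries highest in small intestine genes, and no fold cutoff without CBPWTp53ΔIEC replicate 1, were chosen after seeing the data. Members named were the 5 highest and lowest by TPM, the 5 largest rises and falls of each pairwise comparison, those at an adjusted p under 0.05, the Rpl41 group, Rpl5, Rpl11, Rpl23, Rpsa and the P stalk. A few genes that this rule or the lists name are not reported here. Rps20, Rps27 and others named for a rank under a left-out library were chosen after their values were seen. Members and lists were chosen with earlier results of these data known. Positions and overlaps come from the GENCODE annotation of GRCm38, and start sites from RefSeq.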

Additional observations from a re-analysis of the deposited data

Results flagged for a closer look

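The effect of p53 deletion on Gm10736 differed between the CBP genotypes by a test of the difference itself, the interaction in edgeR. Its log2 fold change in CBPAA minus that in CBPWT mice was -1.707, since it was lower after p53 deletion in CBPAA and higher in CBPWT mice. All 78 of its bases also occur in Rpl41, and its part of the reads of both genes was 2.105% or less in every library.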

How the results depend on the processing

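The replicate number as a block left 0 members called for p53 deletion in CBPWT, in CBPAA and for the interaction, where Gm10736 was called without it (edgeR adjusted p = 0.0781, 0.121 and 0.176), and no other call changed with it. The numbers did not pair the libraries, since 3 of 18 pairs with the same number correlated above 0.1 and 3 of 12 libraries correlated best with their own number. Under the replicate block the members' median was -0.11 in CBPWT and -0.36 in CBPAA mice. edgeR on the groups compared only gave 0 members called for p53 deletion in CBPAA. In CBPAAp53-floxed vs. CBPWTp53-floxed crypts, 1 member was called without a filter on low counts and with DESeq2.

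Leaving out each library in turn, the members called ranged from 0 to 1 for p53 deletion in CBPWT, for p53 deletion in CBPAA, for CBPAA vs. CBPWT in p53-floxed mice and for the interaction, and from 0 to 2 for the average. The members' median ranged from -0.33 to 0.040 for p53 deletion in CBPWT, from -0.47 to -0.30 in CBPAA, from 0.12 to 0.31 for CBPAA vs. CBPWT in p53-floxed mice, from -0.20 to 0.16 in p53ΔIEC mice, from -0.40 to -0.025 for the interaction and from -0.35 to -0.16 for the average. The difference in the share of reads ranged from -0.734 to -0.427 percentage points for the average and from -0.318 to 0.297 between the p53ΔIEC groups. The latter was 0.297 without CBPWTp53ΔIEC replicate 1 and 0.0159 without CBPAAp53ΔIEC replicate 2, both above 0 where it was below 0 with all libraries. By share of TPM, which is on another scale, the average was -0.832.

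Without the 2 libraries highest in small intestine genes, the members called were 3 for p53 deletion in CBPWT (median -0.33), 18 in CBPAA, 1 for CBPAA vs. CBPWT in p53-floxed mice, 0 for the interaction and 11 for the average, against 9.23, 8.12, 0.0808, 0.0 and 11.4% of all genes. Without the 3 highest they were 6 (median -0.34), 12, 1, 1 (median -0.010) and 6, against 11.6, 8.98, 0.217, 0.0407 and 12.6%. With no fold cutoff and without CBPWTp53ΔIEC replicate 1 they were 2 for CBPWT, 1 for CBPAA vs. CBPWT in p53-floxed mice and 51 for the average, against 6.96, 0.0134 and 13.3% of all genes in either direction. Calls among all genes thus grew as well for p53 deletion in CBPWT and for the average. The cause of these changes was not tested. Of 330 values that answer a comparison under an alternative, 280 kept their direction and their side of the threshold. Depth limits what can be read from Rpl24 and Rps10, with 121 and 751 reads over all libraries.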
